A study of Mus musculus with 49 samples.

Results

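The genes Krt20, Cldn7, Cldn15, Aqp11, Calml4, Vnn1, Pls1 and Rab17, known from epithelial cells of the intestine, were followed through 49 one-colour arrays of mouse cells in 23 groups. The 8 genes were chosen by their measured intensities on these arrays, which had shown them to be high when HNF4a was added to the reprogramming factors SOX2, KLF4 and MYC (SKM). Every probe whose current mouse symbol is one of these names was taken, which gave 10 probes, 2 each for Calml4 and Rab17 and 1 for each of the others, among 13852 named genes. All 8 were higher in HNF4a+SKM than in CEBPa+SKM and GRB2+SKM, and 6 of 8 were higher than in SKM+EV. The rule of the choice does not say against which groups HNF4a+SKM was set. Since these patterns point to SKM+EV, CEBPa+SKM and GRB2+SKM, the values in these groups and in HNF4a+SKM are given as a description with no test.

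The study searched for factors that can stand in for OCT4 or SOX2 in the reprogramming of fibroblasts. Fibroblasts (MEF) of the strain OGXICR, female, age D13.5, were prepared from skin of limbs and tails after the epidermis had been taken off, and all factors were carried by a lentiviral system switched on with doxycycline. MEF1 EV (2 arrays) received the empty vector (EV) alone and served as reference for OCT4 substitutes. SKM was given with EV or with 1 further factor, which was HNF4a, CEBPa, GRB2, GATA6, OCT4, SOX7, MIXL1 or PAX1 (2 arrays a group) or GATA4 (3 arrays). MEF2 EV (2 arrays), the reference for SOX2 substitutes, was set beside OKM+EV (3 arrays), where OKM is OCT4, KLF4 and MYC, and OKM was also combined with SOX1, SOX2, SOX3 or GMNN (2 arrays each). Uninfected MEF had 2 arrays, as had each of 3 lines of induced pluripotent stem cells (iPSC) of strain OGXICR, named G3, G6Gm and Dlx3RNAi, the last treated with RNAi against Dlx3. The iPSC arrays are also labelled with age D13.5. The embryonic stem cell (ESC) line R1 (strain 129) had 2 arrays, and ESC line B6 (strain C57BL\6) had 3. The iPSC and ESC lines were grown on mitomycin C-treated MEF feeders, and the labels do not say whether replicate arrays came from separate cultures, so each p-value measures the spread between arrays. In bulk RNA from infected cells, fewer cells of a type and less RNA per cell cannot be told apart.

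HNF4A is a nuclear receptor that sustains the differentiated state of intestinal, liver and kidney epithelium, where it binds DNA as a dimer on a direct repeat. The absorptive cells of the gut carry a brush border of actin-filled microvilli on the apical side, are sealed to their neighbours by tight junctions, and depend on polarised membrane traffic to keep the surfaces apart. Krt20 encodes an intermediate filament protein of mature gut epithelium, Pls1 an actin-bundling fimbrin of microvilli, and Calml4 a calmodulin-like protein of the adhesion complex between microvilli. Cldn7 and Cldn15 encode claudins of the tight junction, of which claudin 15 forms cation pores. Aqp11 encodes an aquaporin found in intracellular membranes, Vnn1 a pantetheinase anchored to the cell surface, and Rab17 a small GTPase of epithelial endosomes. In RefSeq's annotation of GRCm38.p6, Krt20 lies at chr11:99428385-99438153, Cldn7 at chr11:69964779-69967886, Pls1 at chr9:95752642-95845306, Calml4 at chr9:62857472-62875921, Cldn15 at chr5:136967869-136975845, Aqp11 at chr7:97726379-97738247, Vnn1 at chr10:23894688-23905344 and Rab17 at chr1:90958133-90969673. The files do not say which exon a probe reads.

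Promoter windows of 300 bases, from 250 before to 50 after the annotated start (RefSeq, GRCm38.p6), were present for 7 of the 8 genes, with 2 windows for Cldn7 and none for Vnn1. They were searched on both strands for the HNF4 core CAAAGTCCA (its reverse is TGGACTTTG), first exactly and then with up to 1 mismatch. None of the 8 windows held the exact core, which stood in 156 of all 32851 windows (0.475%). With up to 1 mismatch, 3 of the 8 windows held it, those of Krt20, Calml4 and Cldn15, against 2783 of 32851 windows (8.47%). Stretches around these matches are shown because no other of the 8 windows held one, so they were picked by the search itself. Each is read 5′ to 3′ on the strand of the gene with the matching 9 bases in capitals. All 3 printed matches lie upstream of the start of their window, with the core on the strand opposite to the gene. For Calml4 the window (chr9:62857854-62858153), and with it the match, lies inside the gene interval given above, so its start is not the outermost one. The same holds for the window of Rab17 and for 1 window of Cldn7. Krt20 had another match with 1 mismatch that begins 17 bases past the start and is not printed. A match describes letters in a window and does not show a bound site, and no match says only that these letters are not in the window.
Krt20: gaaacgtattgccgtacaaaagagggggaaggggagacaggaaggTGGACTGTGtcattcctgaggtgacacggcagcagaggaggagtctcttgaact
Calml4: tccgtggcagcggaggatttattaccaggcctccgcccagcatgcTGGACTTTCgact
Cldn15: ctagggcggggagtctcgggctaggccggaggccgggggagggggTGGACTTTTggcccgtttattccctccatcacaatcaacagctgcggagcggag
The Krt20 stretch lies at chr11:99438184-99438282 on the minus strand, with the match from position -84 to -76 relative to the start. The Calml4 stretch lies at chr9:62858046-62858103 on the plus strand, with the match from -13 to -5. The Cldn15 stretch lies at chr5:136967758-136967856 on the plus strand, with the match from -66 to -58.

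The deposited values are linear intensities in arbitrary units, with no flag for detection, so how far a dim probe stands above background is not known here. The arrays fall into 5 sets that appear to have been normalized separately, and values were compared only within a set. The 23 arrays of MEF1 EV and the SKM groups form 1 set, in which all 8 genes were among 10006 named genes with a value on every array. In that set the arrays of CEBPa+SKM, HNF4a+SKM and GRB2+SKM correlated with one another at r of 0.987 to 0.994 across genes. This was as close as replicates of 1 group (0.983 to 0.995), and with the other groups they correlated at 0.870 to 0.952. Pairs between those other groups ran from 0.846 to 0.985. The labels name no batch that CEBPa+SKM, HNF4a+SKM and GRB2+SKM share, and what sets them apart from the other groups was not tested. Hnf4a itself was not measured in this set, nor were Cebpa, Sox7, Pax1 and Mixl1. The probe of Gata6 read 1668 to 1948 in GATA6+SKM against 2336 to 2361 in SKM+EV, that of Gata4 230.0 to 379 in GATA4+SKM against 1083 to 1099.8, and that of Grb2 2692 to 3072 in GRB2+SKM against 2533 to 3278. The probe of Pou5f1, the gene of OCT4, read 158 to 170.0 in OCT4+SKM against 108 to 129. It read higher in HNF4a+SKM (202 to 213) and MIXL1+SKM (218 to 229), overlapped in MEF1 EV (148 to 197), and was lower in the remaining groups. Whether these probes read any part of a vector-borne factor is not given in the sources used here, so they check no label.

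Against SKM+EV, HNF4a+SKM was higher on every array for Krt20, Cldn7, Cldn15, Aqp11, Calml4 and Pls1, overlapped for Vnn1, and was lower for Rab17. Over all 10006 genes, 40.9% had both HNF4a+SKM arrays above both SKM+EV arrays, and 42.5% passed the test at an adjusted p of 0.05 in either direction. Against the 4 arrays of CEBPa+SKM and GRB2+SKM, all 8 genes were higher with no overlap, beside 11.2% of all genes, and 0.460% of all genes passed the test against their mean. Nothing about the 8 genes is read from these shares, since these contrasts may have served to choose them. The differences below are of log2(intensity + 32), which understates the change of a dim gene.

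Among the genes of the cytoskeleton and microvilli, Krt20 read 1583 and 1451 on the HNF4a+SKM arrays, 432 and 389 in SKM+EV, 224 and 205 in CEBPa+SKM and 245 and 213 in GRB2+SKM. Its lowest levels in the set were those of CEBPa+SKM and GRB2+SKM, which overlapped, and its HNF4a+SKM arrays were the highest of all 23, with no overlap with GATA6+SKM, the next group. The difference was 1.81 against SKM+EV and 2.61 against the mean of CEBPa+SKM and GRB2+SKM. Pls1 read 411 and 411 in HNF4a+SKM, 46.3 and 72.3 in SKM+EV, 142 and 166 in CEBPa+SKM and 164 and 187 in GRB2+SKM. Here CEBPa+SKM and GRB2+SKM also stood above SKM+EV, by 1.04 and 1.20, so that the difference of HNF4a+SKM was 2.29 against SKM+EV and 1.17 against those 2 groups. Calml4 read 15668 and 15979.7 in HNF4a+SKM, 5599 and 4836 in SKM+EV, 6420.4 and 5845 in CEBPa+SKM and 6757 and 6401 in GRB2+SKM. These differences were 1.60 and 1.31, and the second Calml4 probe was likewise highest in HNF4a+SKM, at 504 and 515, against 50.7 to 319 on the other 21 arrays.

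Of the claudins, Cldn7 read 361 and 400.3 in HNF4a+SKM and 50.2 to 108 on the 8 arrays of SKM+EV, CEBPa+SKM, GRB2+SKM and MEF1 EV, a difference of 1.83 against SKM+EV and of 1.91 against the mean of CEBPa+SKM and GRB2+SKM. Cldn15 read 794 and 861 in HNF4a+SKM, 266 and 247 in SKM+EV, 283 and 247 in CEBPa+SKM and 299.7 and 264 in GRB2+SKM. SKM+EV, CEBPa+SKM and GRB2+SKM overlapped for Cldn15, and the fibroblasts of MEF1 EV held 669 and 693. HNF4a+SKM thus stood 1.58 above SKM+EV but 0.27 above MEF1 EV, with SKM+EV at -1.31 relative to MEF1 EV.

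Aqp11 read 377 and 411 in HNF4a+SKM, 78.5 and 61.6 in SKM+EV, 100.1 and 102 in CEBPa+SKM and 106 and 101 in GRB2+SKM, a difference of 2.06 against SKM+EV and 1.66 against the mean of the other two. Of the other groups of the set, GATA4+SKM came nearest and no other exceeded 106. Vnn1 read 1836 and 1891 in HNF4a+SKM, 1885 and 1569 in SKM+EV and 2041 and 2129.5 in MEF1 EV, so that HNF4a+SKM overlapped with SKM+EV and lay below MEF1 EV. Vnn1 was lower in CEBPa+SKM (939.7 and 804) and GRB2+SKM (841 and 723), so its difference was 1.15 against these and 0.11 against SKM+EV. Rab17 read 495 and 474 in SKM+EV, 365 and 388 in HNF4a+SKM, 137 and 207 in CEBPa+SKM and 129.8 and 179 in GRB2+SKM. HNF4a+SKM lay between them, and differed by -0.34 from SKM+EV and by 1.08 from the mean of CEBPa+SKM and GRB2+SKM. The second Rab17 probe read 39.6 to 105 throughout the set and did not separate HNF4a+SKM, at 78.2 and 51.5.

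**Figure D1:**
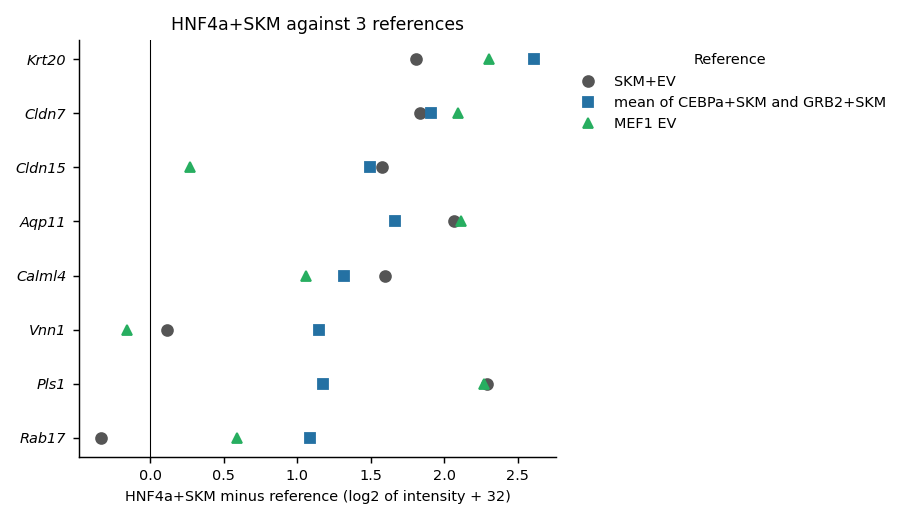
The log2 difference of HNF4a+SKM (2 arrays) from each of 3 references is plotted for the 8 genes, with circles for SKM+EV, squares for the mean of CEBPa+SKM and GRB2+SKM, and triangles for MEF1 EV. The squares run from 1.08 to 2.61, whereas Vnn1 and Rab17 lie at 0.11 and -0.34 against SKM+EV.

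Over the 11 groups of the set, HNF4a+SKM had the highest level of 5 of the 8 genes (Krt20, Cldn7, Aqp11, Calml4 and Pls1), and in each of these it did not overlap with the next group. The next group was GATA6+SKM for Krt20 and Pls1, MIXL1+SKM for Cldn7, GATA4+SKM for Aqp11 and PAX1+SKM for Calml4. HNF4a+SKM was second for Cldn15, after GATA6+SKM, at rank 4 for Vnn1, after GATA6+SKM, GATA4+SKM and MEF1 EV, and at rank 5 for Rab17, after OCT4+SKM, GATA6+SKM, SKM+EV and MIXL1+SKM. At the lower end, neighbours in the order often overlapped, as for Aqp11, where GATA6+SKM, OCT4+SKM, SOX7+SKM, PAX1+SKM, SKM+EV, MEF1 EV and MIXL1+SKM each overlapped with the next. Across the 11 group means, 21 of the 28 pairs of genes had a correlation above 0, 9 of them above 0.5, from 0.84 for Vnn1 with Cldn15 to -0.67 for Vnn1 with Calml4. These correlations are a description over groups that share a normalization and the HNF4a+SKM arrays by which the genes were chosen.

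**Figure D2:**
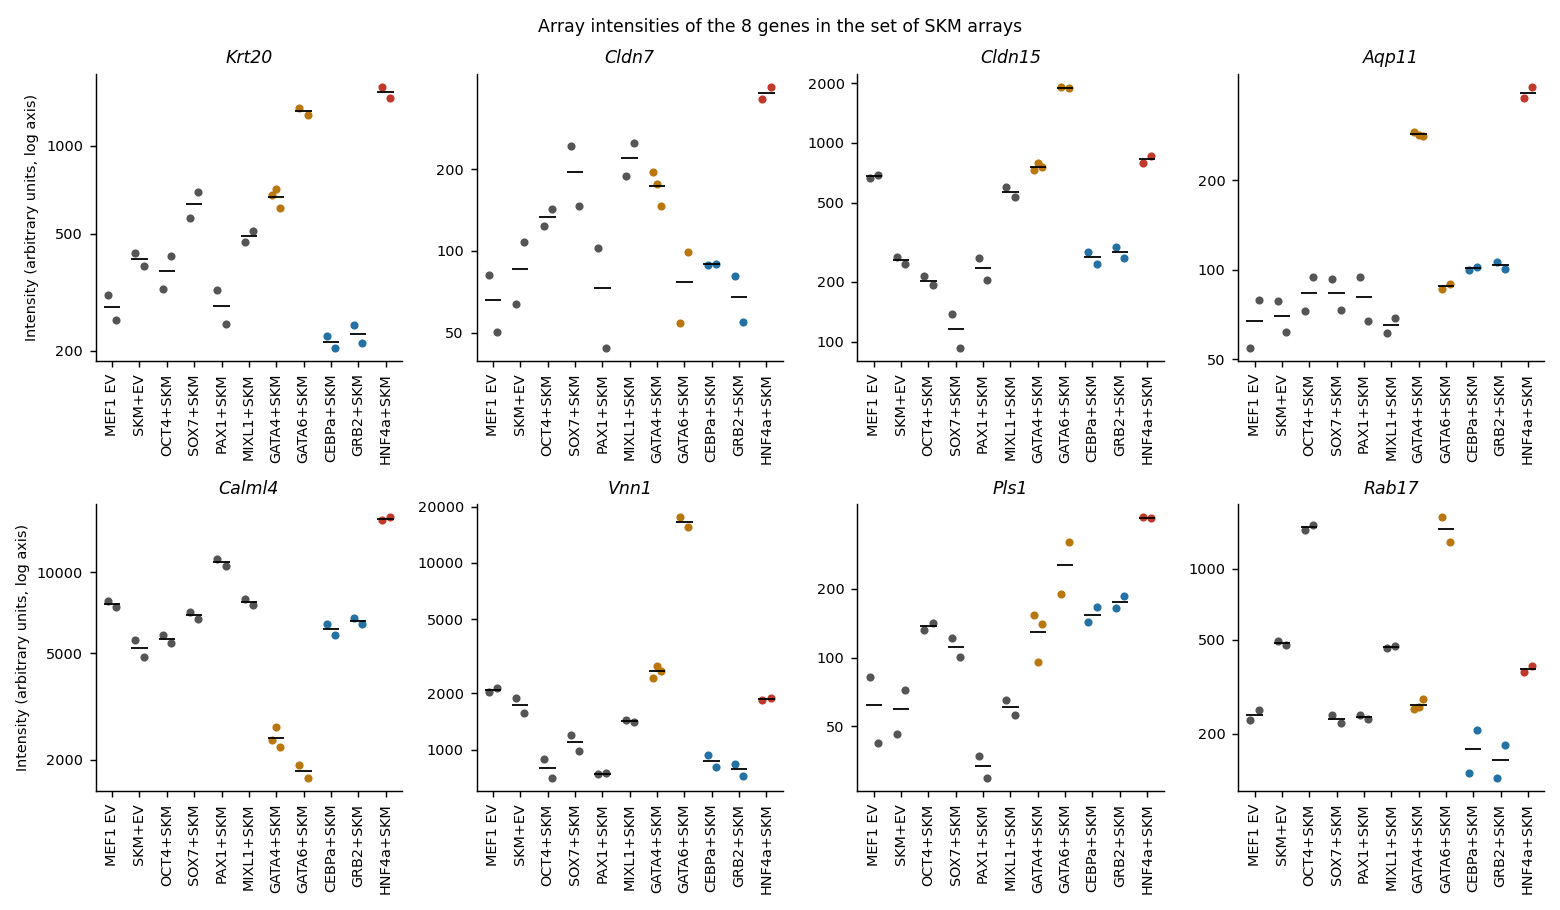
Intensity (log axis, arbitrary units) of each gene's main probe on the 23 arrays of the SKM set, with 1 point per array and a bar at the mean of each group. The HNF4a+SKM points are the highest for Krt20, Cldn7, Aqp11, Calml4 and Pls1, and the GATA6+SKM points are the highest for Cldn15 and Vnn1.

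Tests were made on the 6 other factor groups, for which no part in the choice is known. Each was compared with the mean of the other 7 factor groups, which leaves out HNF4a+SKM and SKM+EV but holds CEBPa+SKM and GRB2+SKM, whose values may have served the choice. The counts were therefore also made with these 2 groups out of the reference, an alternative chosen after seeing the data, and they then moved by 1 gene in GATA4+SKM and OCT4+SKM and not in the other four. In that alternative 24.9% of all genes passed for GATA6+SKM, 59.1% for GATA4+SKM, 17.6% for OCT4+SKM, 25.1% for PAX1+SKM, 17.3% for SOX7+SKM and 26.1% for MIXL1+SKM. In GATA6+SKM, whose added factor is a zinc finger protein of endoderm and gut epithelium, 5 of the 8 genes rose, 2 fell and 1 did not pass, with a median log2 difference of 1.37, while 30.4% of all genes passed (12.3% higher and 18.2% lower) with a median of -0.02. Vnn1 read 17507 and 15585 against 705 to 2809 on all other arrays of the set, and rose by 3.90 (SE 0.17, adjusted p = 4.64e-18). Cldn15 read 1909 and 1878, above every other array of the set, and rose by 2.56 (SE 0.17, adjusted p = 3.33e-13). Rab17 read 1647 and 1296, a level reached elsewhere only in OCT4+SKM, with which it overlapped. It rose by 2.11 (SE 0.15, adjusted p = 4.28e-13).

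Krt20 read 1348 and 1267 in GATA6+SKM and rose by 1.71 (SE 0.21, adjusted p = 1.59e-07), standing above all arrays of the set but those of HNF4a+SKM. Pls1 read 189.7 and 321, replicates that lie far apart but above all arrays of the 7 other factor groups, and rose by 1.03 (SE 0.17, adjusted p = 7e-05). Calml4 went the other way, with 1918 and 1714 against 4836 to 11224 outside the GATA4+SKM and HNF4a+SKM groups, and its log2 difference was -1.74 (SE 0.14, adjusted p = 3.03e-11). Cldn7 read 54.5 and 98.9 and fell, with a log2 difference of -0.55 (SE 0.18, adjusted p = 0.0163). Without the first GATA6+SKM array this became -0.25 (adjusted p = 0.515). Aqp11, at 85.9 and 89.6, did not pass, with a 95% interval of -0.47 to 0.13 for its difference.

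In GATA4+SKM, whose added factor is a relative of GATA6 active in endoderm and heart, 5 of the 8 genes rose and 2 fell, in a comparison where 56.9% of all genes passed (29.7% higher and 27.3% lower). The median was 0.58 over the 8 genes and 0.01 over all genes. Aqp11 read 291, 283 and 281 against 54.7 to 106 outside HNF4a+SKM, with no overlap, and rose by 1.43 (SE 0.12, adjusted p = 9.74e-10). Cldn15 read 727, 789 and 759 and rose by 1.09 (SE 0.15, adjusted p = 3.29e-07), and Vnn1 read 2428, 2809 and 2624 and rose by 0.88 (SE 0.14, adjusted p = 5.75e-06). Both lay below GATA6+SKM and above the arrays of the 6 remaining factor groups. Krt20 (680.1, 712 and 615) rose by 0.64 and Cldn7 (196, 176 and 146) by 0.52, both within the range of the other factor groups. Calml4 fell to 2369.8, 2644 and 2232, a log2 difference of -1.28 (SE 0.12, adjusted p = 4.18e-10), and Rab17 fell by 0.55 to 255, 259 and 281. With CEBPa+SKM and GRB2+SKM out of the reference, Krt20 did not pass, at 0.31 (adjusted p = 0.163), and 4 genes were higher and 2 lower. The median was then 0.34 over the 8 genes and 0.05 over all genes.

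**Figure D3:**
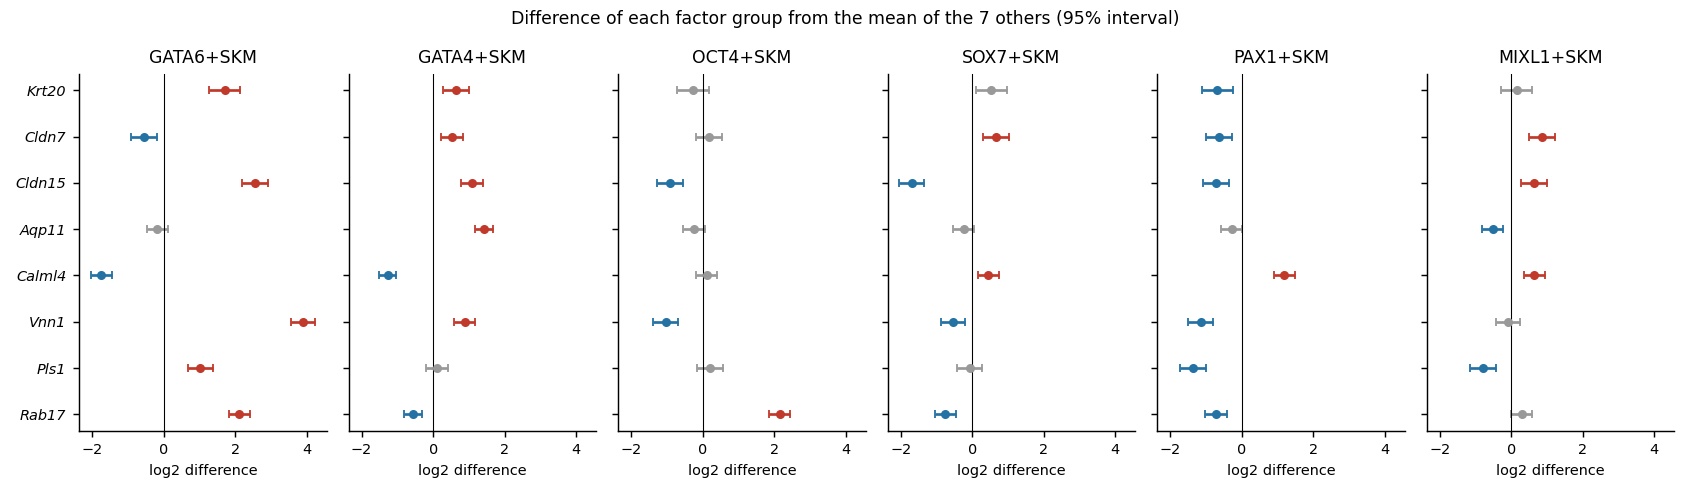
The log2 difference of each of 6 factor groups from the mean of the other 7 is plotted for the 8 genes with its 95% interval from the fit. The other 7 include CEBPa+SKM and GRB2+SKM. Points are red where the gene passed as higher, blue where it passed as lower and grey otherwise. The largest value is that of Vnn1 in GATA6+SKM at 3.90, and Calml4 is lower in both GATA groups.

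In OCT4+SKM, the combination of the classical factors, 1 gene rose and 2 fell, beside 28.2% of all genes. Rab17 read 1463 and 1532 and rose by 2.15 (SE 0.15, adjusted p = 1.12e-12). Cldn15, at 214 and 192, had a log2 difference of -0.91 (SE 0.17, adjusted p = 0.000163), and Vnn1, at 894 and 705, one of -1.04 (SE 0.17, adjusted p = 1.85e-05). Rab17 stood above every array of the set but 1 of GATA6+SKM, and the lower Vnn1 array was the lowest of the 23, while Cldn15 lay within the range of the other factor groups. These 3 calls passed in every alternative run, and with CEBPa+SKM and GRB2+SKM out of the reference Krt20 was lower as well, at -0.65.

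In PAX1+SKM, 6 genes fell and 1 rose, beside 22.8% of all genes (11.4% higher and 11.4% lower). Calml4 read 11224 and 10570.3 and rose by 1.20 (SE 0.14, adjusted p = 1.72e-07), above all other arrays but those of HNF4a+SKM. Pls1 read 37.0 and 29.7, the lowest in the set, with a log2 difference of -1.37 (SE 0.17, adjusted p = 3.74e-06). Vnn1 (737 and 745) differed by -1.15, Rab17 (241 and 232) by -0.72, Cldn15 by -0.72, Krt20 by -0.68 and Cldn7 by -0.64. Without the second PAX1+SKM array, Krt20, Cldn7 and Cldn15 no longer passed and 4 of the 7 calls were left, while without the first array Krt20 did not pass.

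In SOX7+SKM, 2 genes rose and 3 fell, beside 19.6% of all genes. Cldn15 read 138 and 93.4, the lowest level in the set, with a log2 difference of -1.69 (SE 0.17, adjusted p = 1.43e-08), and Rab17 (239 and 222) differed by -0.75 (SE 0.15, adjusted p = 0.000306). Vnn1 differed by -0.54, Cldn7 by 0.66 and Calml4 by 0.44. None of these 3 passed without the first SOX7+SKM array, which left 2 calls, and neither Vnn1 nor Calml4 passed without the second, which left 3. In MIXL1+SKM, 3 genes rose and 2 fell, beside 35.5% of all genes. Cldn7 (189 and 249) differed by 0.85 (SE 0.18, adjusted p = 0.000477), Calml4 by 0.64, Cldn15 (599 and 535) by 0.63, Pls1 by -0.79 and Aqp11 by -0.52. Without the first MIXL1+SKM array Cldn15 and Aqp11 did not pass, which left 3 calls. Without the second, 1 gene passed, Calml4, and with the mean of both Calml4 probes in place of its brighter probe that difference was 0.17 (adjusted p = 0.256).

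Against the fibroblasts of MEF1 EV, the same 6 groups share 1 reference of 2 arrays, and each comparison is given by its own values. GATA6+SKM had 5 of the 8 genes higher and 1 lower, beside 39.4% of all genes, with Vnn1 at 2.97, Rab17 at 2.46, Krt20 at 2.09, Pls1 at 1.60, Cldn15 at 1.43 and Calml4 at -2.05. GATA4+SKM had 4 higher and 1 lower, beside 58.0% of all genes, with Aqp11 at 1.69 and Calml4 at -1.64. OCT4+SKM had 3 higher and 2 lower (22.4% of all genes), with Rab17 at 2.49 and Cldn15 at -1.60. SOX7+SKM had 3 higher and 2 lower (34.7%), with Cldn15 at -2.29. PAX1+SKM had none higher and 2 lower (18.5%), Cldn15 at -1.43 and Vnn1 at -1.45. MIXL1+SKM had 2 higher and none lower (24.1%), Cldn7 at 1.37 and Rab17 at 0.87. Without the second MEF1 EV array, Cldn7 and Pls1 in OCT4+SKM and Pls1 in SOX7+SKM and GATA4+SKM did not pass, and Pls1 in PAX1+SKM did.

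The mean of these 6 factor groups differed from MEF1 EV for 7 of the 8 genes, 5 higher and 2 lower, beside 38.7% of all genes. Rab17 (0.98), Krt20 (0.90), Cldn7 (0.77), Pls1 (0.57) and Aqp11 (0.43) were higher, and Cldn15 (-0.67) and Calml4 (-0.62) were lower. Vnn1 did not pass, at -0.16 (SE 0.17, adjusted p = 0.478). This comparison was chosen after seeing the data. The planned mean of 8 factor groups, which holds CEBPa+SKM and GRB2+SKM as well, differed from MEF1 EV for all 8 genes, beside 44.0% of all genes, with Vnn1 lower at -0.45. For Vnn1 the mean intensity was higher in these 8 groups, 3111 against 2085, with the 2 GATA6+SKM arrays far above all others, and the sign given is that of the log2 means. Without the first MEF1 EV array, and likewise without the second, 4 of the 8 genes passed for the mean of 8 groups. For the mean of 6 groups, 6 genes passed without the first MEF1 EV array (Aqp11 did not) and 4 without the second (Krt20, Cldn7 and Pls1 did not). In the mean of 8 groups Calml4 did not pass with the mean of both its probes, at -0.17 (adjusted p = 0.231), nor Aqp11 with each set quantile normalized anew, at 0.32 (adjusted p = 0.066).

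The name intestinal epithelial genes was not borne out by the other genes of that tissue that were measured, all of them dim. The 8 genes are therefore called by their symbols. Of 50 listed enterocyte and intestinal genes, 16 were measured on every array of the set, and none of the 16 was highest in HNF4a+SKM among the 11 groups. All 16 were dimmer in HNF4a+SKM than the median of all genes (670), with a median of 188. How far these probes stood above background is not known, so they are a weak check of the name. The intestinal homeobox gene Cdx2 read 58.6 and 62.3 in HNF4a+SKM, 49.7 and 67.2 in CEBPa+SKM, 45.9 and 56.1 in GRB2+SKM and 97.6 and 113 in SKM+EV. Against SKM+EV, 1 of the 16 rose, Gpa33, a surface antigen of gut epithelium, by 1.23 (adjusted p = 0.00296), and 6 fell, together a share near the 42.5% of all genes that passed. Among those that fell, the intestinal cadherin Cdh17 differed by -1.70 (adjusted p = 0.00248), Prap1 by -1.34 (adjusted p = 0.018) and the fatty acid binding protein gene Fabp2 by -0.96 (adjusted p = 0.00385). Without the first SKM+EV array 3 of these 7 calls were left, and without the second HNF4a+SKM array 4. Against the mean of CEBPa+SKM and GRB2+SKM, 0 of the 16 passed in limma, and 4 had an unadjusted p under 0.05. Cdh17 and Fabp2 were low in these 2 groups as well, at means of 546 and 416 for Cdh17 and 112 and 129 for Fabp2. In SKM+EV their means were 1326 and 263. Gpa33 also lay above SKM+EV (mean 28.0) in these 2 groups, at 47.8 and 49.9, though less far than in HNF4a+SKM (108). Its means in GATA4+SKM and GATA6+SKM were 114 and 101.

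For the lists that follow, 42.5% of all genes passed against SKM+EV and 0.460% against the mean of CEBPa+SKM and GRB2+SKM. Of 10 measured genes of a brush border and microvillus list, 2 rose and 3 fell against SKM+EV. The list is broad, and its genes Cdhr1 and Fscn1 are not particular to the brush border. The cadherin family gene Cdhr1 stood at -1.97 (adjusted p = 9.8e-09) and the actin bundler Fscn1 at 1.79 (adjusted p = 2.54e-07). The capping protein gene Eps8 stood at -1.85 (adjusted p = 0.000227) and Pdzk1, a scaffold of apical transporters, at -0.81 (adjusted p = 0.0295). Of these 10 genes, 7 were dimmer in HNF4a+SKM than the median of all genes (670). Against the mean of CEBPa+SKM and GRB2+SKM, 1 of the 10 passed, the apical scaffold gene Slc9a3r1 at 0.62 (adjusted p = 0.0231). With any of the 6 arrays of that comparison left out it did not pass. Of 15 other tight junction genes, 2 rose and 5 fell against SKM+EV, with Cldn11 at -2.32 (adjusted p = 9.61e-10), and 0 passed against CEBPa+SKM and GRB2+SKM in limma, 3 with an unadjusted p under 0.05. Without the first SKM+EV array, and likewise without the first HNF4a+SKM array, 3 of the 7 tight junction calls were left. Of 19 close relatives of the 8 genes (other keratins, fimbrins, calmodulins, aquaporins and Rab proteins), 4 rose and 8 fell against SKM+EV and 0 passed against CEBPa+SKM and GRB2+SKM in limma, 2 with an unadjusted p under 0.05. The relatives included the calmodulin gene Calm3 at 2.15 (adjusted p = 2.4e-08), Lcp1, the leukocyte fimbrin, at -2.15 (adjusted p = 3.11e-05), Krt19, a simple epithelial keratin, at -1.91 (adjusted p = 2.95e-09), and Rab25, an epithelial Rab protein, at -1.89 (adjusted p = 9.58e-08). Of 12 measured liver genes known as HNF4A targets, 4 rose and 3 fell against SKM+EV, with the fetuin gene Ahsg at 1.61 (adjusted p = 7.25e-07), Apoa2 at 1.55 (adjusted p = 2.43e-05), and the coagulation factor genes F9 at -1.54 (adjusted p = 0.0194) and F10 at -1.40 (adjusted p = 0.00893). Without the first SKM+EV array 4 of these 7 calls were left, and without the second HNF4a+SKM array 3. Against CEBPa+SKM and GRB2+SKM 1 of the 12 passed, the apolipoprotein gene Apoe at 1.08 (adjusted p = 0.00088), and it did not pass without the second HNF4a+SKM array. Ahsg averaged 424 in CEBPa+SKM and 407 in GRB2+SKM, above its 344 in HNF4a+SKM, against 91.6 in SKM+EV. Cdhr1, Eps8, Fscn1, Cldn11, Calm3, Apoa2, F9 and F10 also differed from SKM+EV in 1 direction in all 3 groups. These changes are thus not particular to HNF4a+SKM. Apoe was unlike them, at 925 and 852 in CEBPa+SKM and GRB2+SKM against 1399 in SKM+EV.

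In GATA6+SKM, where 5 of the 8 genes had risen and 30.4% of all genes passed, 4 of the 16 enterocyte genes rose and none fell, among them Tm4sf5 at 1.12 (adjusted p = 0.000418) and the brush border peptidase gene Anpep at 1.08 (adjusted p = 3.1e-08). Of the 10 genes of the brush border list 3 rose and 2 fell. Pdzk1 stood at 2.80 (adjusted p = 1.51e-11), Slc9a3r1 at 1.18 (adjusted p = 2.58e-09) and Cdhr1 at -0.96 (adjusted p = 1.57e-05). Of the 15 tight junction genes 6 rose and 2 fell, with F11r, which encodes a junctional adhesion molecule, at 2.90 (adjusted p = 1.15e-18), Cldn6 at 2.01 (adjusted p = 8.17e-09) and Cldn11 at -1.84 (adjusted p = 2.44e-10). Of the 19 relatives 5 rose and 2 fell, with Krt8 at 2.73 (adjusted p = 3.53e-14), its partner keratin Krt19 at 2.59 (adjusted p = 3.19e-15), Aqp8 at 2.36 (adjusted p = 1.19e-06) and Calm3 at -0.92 (adjusted p = 0.000182). The median difference of the 16 enterocyte genes was 0.31 and that of all genes -0.02. In GATA4+SKM, where 56.9% of all genes passed, 4 of the 16 enterocyte genes rose and 6 fell, with Cdh17 at -1.49 (adjusted p = 6.01e-05), together a share near that of all genes. Of the 12 liver genes 3 rose and 6 fell, with Ahsg at 4.50 (adjusted p = 8.94e-19) and F9 at -1.21 (adjusted p = 0.0031).

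Markers of other cell types also differed between groups, in orders of their own. The summed intensity of 12 measured keratinocyte markers of 18 was 5065 to 5350.0 in MEF1 EV, 111008 to 115258 in SKM+EV, 20896 to 21329.5 in HNF4a+SKM, 37471 to 39339 in CEBPa+SKM, 25133 to 25424 in GRB2+SKM, 20476 to 21789 in GATA4+SKM and 79684 to 84757 in GATA6+SKM. In PAX1+SKM, where 6 of the 8 genes had fallen, it was 18546 to 19741, near that of HNF4a+SKM. Against SKM+EV, 10 of the 12 keratinocyte markers fell in HNF4a+SKM and none rose, beside 42.5% of all genes that passed in either direction. Krt6b stood at -3.35 (adjusted p = 5.41e-15) and Krt17 at -3.08 (adjusted p = 2.23e-11). The 16 measured fibroblast markers of 20 summed to 246661 to 259102 in MEF1 EV, 209899 to 223091 in SKM+EV, 222589 to 222678 in HNF4a+SKM and 132055 to 134371 in GATA6+SKM. In GATA6+SKM 13 of the 16 fell against the other 7 groups, beside 18.2% of all genes. Of the 17 general epithelial markers 4 were measured, and they summed to 975 to 1015 in HNF4a+SKM, 1177 to 1561 in SKM+EV and 1752 to 2289 in GATA6+SKM. In HNF4a+SKM and SKM+EV, 7 measured macrophage markers of 14 summed to 1296 to 1382 and 1447 to 1649, 6 endothelial markers of 10 to 1473 to 1641 and 2192 to 2612, and 6 pluripotency markers of 14 to 4530.4 to 4821 and 4700.4 to 4707. The files hold no detection call, so no marker could be said to be absent, and the part of these cell types in the values of the 8 genes was not tested. Against the mean of CEBPa+SKM and GRB2+SKM, 1 of the 7 macrophage markers passed in limma, Laptm5 at 0.74 (adjusted p = 0.0404), and 0 of the other 5 marker lists, of which 5 markers had an unadjusted p under 0.05.

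The profile of the 8 genes, taken as the mean of their z-scored group means, was highest in HNF4a+SKM (1.33), then in GATA6+SKM (0.75) and GATA4+SKM (0.28), and lowest in PAX1+SKM (-0.59). Among 6374 other genes bright enough to be considered, those most like it over the 11 group means were Brms1 (r = 0.74), Dgka (0.69), Scrn2 (0.69), Cuta (0.69), Slc9a3r1 (0.68) and Gmps (0.67). Brms1 had mean intensities of 1490.0 in HNF4a+SKM, 1608 in GATA6+SKM and 1217 in SKM+EV. Gmps, which encodes GMP synthetase of purine synthesis, spread further. It averaged 12993 in GATA6+SKM, 3482 in GATA4+SKM and 3008 in HNF4a+SKM. Its means were 791 in SKM+EV, 331 in CEBPa+SKM, 310.1 in GRB2+SKM and 25.9 in MEF1 EV, the last a dim reading. These correlations are a description over 11 groups.

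With OCT4 in place of SOX2, OKM+EV was compared with MEF2 EV, where Pls1 had no value and 7 of the 8 genes were measured. Of the 7, 3 rose and 1 fell, beside 40.8% of all genes (19.8% higher and 21.1% lower). Rab17 read 2325, 2152 and 1701 in OKM+EV against 212 and 125 in MEF2 EV and rose by 3.41 (SE 0.18, adjusted p = 4.28e-16). Cldn7 read 473, 438 and 452 against 94.0 and 121 and rose by 1.81 (SE 0.21, adjusted p = 3.83e-08). Both stood clear of their reference on every array. Krt20 read 149, 138 and 461 against 94.0 and 109, and Cldn15 333, 344 and 852 against 895 and 816, so that the third OKM+EV array stood apart from its replicates in both. Their differences were 0.89 (SE 0.26, adjusted p = 0.00624) for Krt20 and -0.84 (SE 0.21, adjusted p = 0.00175) for Cldn15. In a fit of these 5 arrays alone neither passed (adjusted p = 0.352 and 0.357), leaving 2 calls, and without the third OKM+EV array Krt20 stood at 0.40 (adjusted p = 0.0549). Without the first MEF2 EV array Krt20 did not pass either (adjusted p = 0.0574).

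With OKM and SOX1, SOX2, SOX3 or GMNN, all 8 genes were measured, and OKM+SOX2 served as reference. In OKM+SOX1 and OKM+SOX3 0 of the 8 genes passed, beside 5.72% and 6.31% of all genes. At an unadjusted p under 0.05 from limma, 2 of the 8 differed in each. The OKM+SOX2 replicates lay apart for Vnn1 (968 and 2159), and without the second of them Vnn1 passed as higher in OKM+SOX1, OKM+SOX3 and OKM+GMNN. The intervals stayed wide, as for Cldn7 in OKM+SOX3 (901 and 683 against 512 and 483), whose difference had a 95% interval of 0.15 to 1.10. In OKM+GMNN 1 gene rose and 1 fell, beside 7.23% of all genes. Rab17 read 1626 and 1888 against 995 and 730.3 and rose by 1.01 (SE 0.19, adjusted p = 0.000766). Aqp11 read 84.5 and 101 against 178 and 146, a log2 difference of -0.64 (SE 0.19, adjusted p = 0.0443), which did not pass at a pseudocount of 8, without the first OKM+SOX2 array or without either OKM+GMNN array. In a fit of these 8 arrays alone neither gene passed, with an adjusted p of 0.0516 for Rab17 and 0.318 for Aqp11.

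In the pluripotent lines Aqp11 and Pls1 had no value, and 6 genes were compared. Between the mean of the 4 lines G6Gm, G3, Dlx3RNAi and R1 and uninfected MEF, 4 of the 6 were higher and 1 lower, beside 57.8% of all genes (28.7% higher and 29.1% lower). Cldn7 read 40.5 and 49.2 in MEF, 113 and 138 in G6Gm, 202 and 222 in Dlx3RNAi, 480.0 and 470.0 in R1 and 654 and 710.2 in G3. Its 5 groups did not overlap, and the lines differed from MEF by 2.16 (SE 0.19, adjusted p = 2.53e-11). Krt20 read 199.5 and 238 in MEF and 491 to 659 in the lines, a difference of 1.28 (SE 0.23, adjusted p = 1.5e-05). Calml4 read 523 and 519 in MEF and 634 to 1516 in the lines, a difference of 0.86 (SE 0.15, adjusted p = 1.41e-05).

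Cldn15 went the other way, with 146 and 139.5 in MEF and 32.2 to 52.4 in the lines, a log2 difference of -1.25 (SE 0.18, adjusted p = 9.03e-07). Rab17 read 104 and 101 in MEF and 111 to 187 in the lines, a difference of 0.42 (SE 0.15, adjusted p = 0.0202) that did not pass without either MEF array or at the larger pseudocount tried. Vnn1 overlapped between MEF (551 and 462) and the lines (237 to 609.5) and did not pass.

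Against ESC line R1 the 3 iPSC lines were lower in 1 of the 6 genes, Cldn7, at -0.75 (SE 0.19, adjusted p = 0.00688), beside 6.35% of all genes that were lower, and higher in none of the 6. This mean hides lines on both sides of R1, G3 above and the other two below, and did not pass without either R1 array. Between the iPSC lines, G6Gm was lower than G3 in 2 of the 6 genes (19.7% of all genes), Cldn7 at -2.18 (SE 0.23, adjusted p = 2.95e-08) and Calml4 at -0.66. Dlx3RNAi was lower than G3 in 1 (25.3%), Cldn7 at -1.55 (SE 0.23, adjusted p = 7.46e-06). Between Dlx3RNAi and G6Gm, 1 gene was higher and 1 lower (2.84%), Calml4 at 1.06 (SE 0.19, adjusted p = 0.00127) and Vnn1 at -0.99 (SE 0.22, adjusted p = 0.0108). The Calml4 difference of G6Gm from G3 did not pass without any 1 of its 4 arrays, nor with the mean of both Calml4 probes. The Vnn1 difference of Dlx3RNAi from G6Gm did not pass without either G6Gm array or without the first Dlx3RNAi array. The lines also differed in the summed intensity of 16 fibroblast markers, with means of 83495 in G6Gm, 102193 in Dlx3RNAi, 49920 in G3 and 67205 in R1. Uninfected MEF had 115982. Means for 7 pluripotency markers were 14980, 12394, 19118 and 21787 in the same order of lines. The part of feeder or other fibroblasts in these gene differences was not tested.

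ESC line B6, alone in its set, gave levels with no comparison. Cldn7 read 956, 1069 and 931, Rab17 300.3, 268 and 247, Vnn1 278, 232 and 218, Calml4 206, 214 and 210.0, Krt20 211, 178 and 236 and Cldn15 66.0, 73.7 and 67.8 on its 3 arrays. Replicates of 1 gene stayed close to one another, and Aqp11 and Pls1 had no value there.

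**Figure D4:**
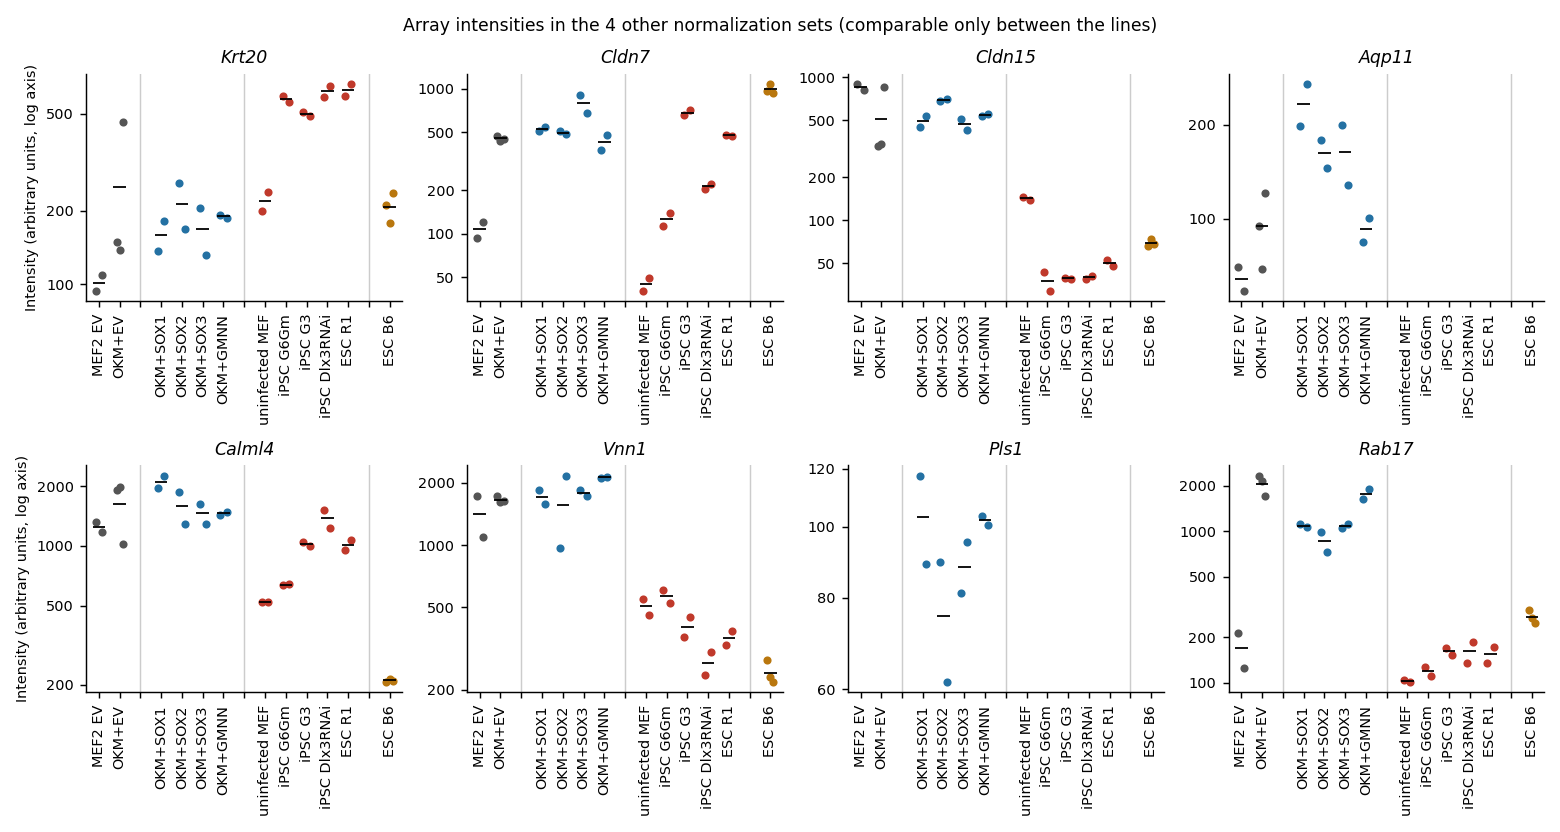
Intensity (log axis, arbitrary units) of each gene's main probe on the 26 arrays outside the SKM set, with 1 point per array, a bar at each group mean, and grey lines between the separately normalized sets. Rab17 and Cldn7 are higher in OKM+EV than in MEF2 EV on every array, Cldn7 differs between all 5 groups of the pluripotent set, and Aqp11 and Pls1 have no value in the pluripotent lines.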

How the data were processed

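The authors deposited 1 value table of linear one-colour intensities for all 49 arrays; its software, background correction and normalization are not described in the labels used here. Missing values and array medians divide the arrays into 5 sets, and nothing was compared across them. Probes were named through the platform annotation, updated to RefSeq symbols (13971 by symbol, 1538 by synonym, 30 kept as given, 3887 unnamed). The brightest of several probes stood for a gene.

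One limma model (3.58.1, R 4.3.3) of log2(intensity + 32) over all 49 arrays, with 1 mean per group and no covariate, gave every log2 difference, SE and interval, and all adjusted p-values in the text are limma's, two-sided, by Benjamini-Hochberg over the genes measured on every array compared (threshold 0.05). The number of arrays, mostly 2 a group, limits the precision. In fits over all arrays, every group is assumed to vary alike.

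The 8 genes and all lists were chosen with earlier results of these data known. The rule does not name the groups HNF4a+SKM was set against, and the values point to SKM+EV, CEBPa+SKM and GRB2+SKM. No comparison of HNF4a+SKM or SKM+EV was tested for the 8 genes. CEBPa+SKM and GRB2+SKM, whose own planned tests are given as values only, stayed in the mean of the other factor groups, and those tests were repeated without them. Other genes were named from the up to 4 of a list with the largest changes that passed a comparison, and the 6 genes most like the 8 in profile; Cdx2 was named after its values were seen. Alternatives were other pseudocounts, each set alone, a filter on dim genes, the mean of probes, renewed normalization, the replicate block and each array left out. Deviations of same-numbered arrays correlated at -0.50 to 0.51 over 45 pairs of SKM groups, with a median of 0.03 and 16 above 0.1. Some groups thus deviated together and some in opposite ways, so the numbers were not used as pairs. Whether arrays share a batch under another numbering was not tested.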

Additional observations from a re-analysis of the deposited data

How the results depend on the processing

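Of 165 pairs of a gene and a comparison tested, 84 passed. Leaving out single arrays ended 27 of these calls, other alternatives 12, and 53 passed throughout; none changed sign. With each set fitted alone, the calls went from 4 to 2 in OKM+EV and from 2 to 0 in OKM+GMNN, and against the mean of CEBPa+SKM and GRB2+SKM from 0 to 1 for enterocyte genes, tight junction genes and relatives. A pseudocount of 8 left 1 call in OKM+GMNN, and the larger one tried gave 1 in OKM+SOX3. The replicate block, by numbers that the main fit does not use as pairs, gave 2 calls in OKM+SOX1, 1 in OKM+SOX3, and 1 each for tight junction genes and relatives. Causes were not tested. With single arrays left out, the count of the 8 genes called ranged from 0 to 1 in OKM+SOX1, OKM+SOX3 and the iPSC lines against R1, from 1 to 3 in OKM+GMNN, 1 to 5 in MIXL1+SKM, 2 to 5 in SOX7+SKM, 4 to 7 in PAX1+SKM and 4 to 8 in the mean of 8 groups against MEF1 EV. Against SKM+EV the calls in HNF4a+SKM ranged from 3 to 5 for enterocyte genes and for tight junction genes and from 3 to 6 for liver genes, and against CEBPa+SKM and GRB2+SKM from 0 to 0 for brush border genes and 0 to 1 for liver genes.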
